A study of Mus musculus with 44 samples.

Results

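The 10 genes described here, Angptl4, Lpl, Acsl1, Cpt1a, Fasn, Scd1, Scd2, Lpin1, Plin2 and Pnpla2, take up, activate, burn, make, store or release fatty acids. They were chosen by name, and each matched 1 row among the 54532 genes of the L929 count table and 1 row among the same 54532 genes of the neuron count table. The L929 table held 16 libraries in 4 groups of 4. L929 is a permanent fibroblast line from mouse connective tissue, and 3 of its groups carried a construct of FRMD5 isoform 2: the full-length protein, a truncated form labelled delta-IDR combined domain (delta-IDR here), and a truncated form without its coiled-coil and what the labels call LCDs (delta-CC-LCD here). The count table names the delta-IDR columns IDRD where the library names have DIDR; they were matched as the same group, and every delta-IDR value rests on that match. FRMD5 carries a FERM domain, found in several proteins that link membrane proteins to the cell's actin skeleton. According to the design text the construct lines had been treated with dexamethasone (DEX), a man-made glucocorticoid that activates the glucocorticoid receptor, for 4 hours. The label of the fourth L929 group says control and no more, so that in every comparison with it the construct and DEX cannot be told apart. The neuron table held 28 libraries of primary cortical neurons from mice in 7 groups of 4: an interfering peptide at 1, 3, 10, 30 or 100 µM with DEX, a control peptide at 100 µM with DEX, and the same control peptide without DEX, for 4 hours by the treatment protocol. The lower doses of interfering peptide had no control peptide at their own dose. The labels name no mouse strain or age, no number of clones behind each L929 line and no concentration of DEX.

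Cells obtain fatty acids from lipoproteins, whose triglycerides lipoprotein lipase splits outside the cell, or make them from acetyl-CoA. Once activated to acyl-CoA, a fatty acid is either carried into mitochondria and oxidised or esterified and stored as triglyceride in lipid droplets, from which lipases release it again. Glucocorticoids are known regulators of several of these steps, and neurons are known to hold few lipid droplets.

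L929 libraries held 17211270 to 18313407 counts and neuron libraries 13685236 to 17083701. Within groups, libraries resembled each other in pairs, most often 1 with 3 and 2 with 4, so results are also given for libraries 1 and 3 alone, for libraries 2 and 4 alone and with the pairs summed where these differ. In L929, the 4 glucocorticoid-responsive genes Fkbp5, Tsc22d3, Sgk1 and Per1, summed with the nearly absent Frmd5, reached 2143 to 2732 CPM (counts scaled to library size by the trimmed mean of M values) in the construct groups, against 295 to 305 CPM in control. Frmd5 itself had 5 to 20 counts per L929 group, so its counts do not check the constructs. In neurons, only Per1 of those 4 passed the test with DEX. Under control peptide the same sum, Frmd5 included, was 286 to 300 CPM without DEX and 311 to 323 CPM with DEX. Of 7 fibroblast markers, which together had 7002 to 8991 CPM in L929 libraries of the full-length, delta-CC-LCD and control groups, Dcn and Lum were at 0 there, and in delta-IDR they had 22 and 18 counts, each in 1 library. The adipocyte marker Retn and the microglia marker C1qa were likewise at 0 in those groups and not in delta-IDR. The source of these counts was not tested. The neuron markers summed to 2403 to 2845 CPM in the neuron libraries, beside 273 to 350 CPM of astrocyte and 462 to 562 CPM of fibroblast markers. The fibroblast list holds Col1a1, Col1a2, Col3a1, Dcn, Lum, Pdgfra and Vim, and Pdgfra is also among the oligodendrocyte markers. These sums do not measure the share of each cell type. In bulk RNA of such cultures, fewer cells of a type and less RNA per cell cannot be told apart. Adipocyte markers summed to at most 0.506 CPM in neurons.

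In mm10 coordinates from the count tables, Scd2 (chr19:44293676-44306864, plus strand) and Scd1 (chr19:44394451-44407709, minus strand) are neighbours on chromosome 19, where Cpt1a also lies (chr19:3323301-3385732, plus strand). Acsl1 (chr8:46471037-46536051) and Lpl (chr8:68880491-68907448) share chromosome 8. The others are Angptl4 (chr17:33773750-33781575), Fasn (chr11:120805846-120824547), Lpin1 (chr12:16535669-16610966), Plin2 (chr4:86648386-86670060) and Pnpla2 (chr7:141455198-141460743). Of all stretches of 50 bases in their GENCODE transcripts, 0% (Angptl4, Fasn, Lpin1, Pnpla2) to 9.23% (Acsl1) also occur in another gene. Of the 4888 stretches of Scd1, 167 also occur in Scd3 and 2.97% in Scd2. Of those of Acsl1, 9.13% occur in the predicted gene Gm45244, which overlaps Acsl1 on the other strand and held 16 counts in all L929 and 36 in all neuron libraries.

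Promoters were available in the RefSeq table (build GRCm38.p6, the assembly of mm10) for 6 of the 10 genes, Acsl1, Cpt1a, Fasn, Lpin1, Plin2 and Pnpla2. Angptl4, Lpl, Scd1 and Scd2 had none in that table. The 4 shown are those of Lpin1, with the largest L929 change, Plin2, the droplet coat, Fasn and Cpt1a, which passed tests in both tables. Each runs 5′ to 3′ from 250 bases before the annotated start to 10 bases after it, and capitals mark matches to CCAAT or CACGTG on either strand. The windows are chr12:16610957-16611216 on the minus strand for Lpin1, chr4:86670050-86670309 on the minus strand for Plin2, chr11:120824538-120824797 on the minus strand for Fasn and chr19:3323051-3323310 on the plus strand for Cpt1a.
Lpin1: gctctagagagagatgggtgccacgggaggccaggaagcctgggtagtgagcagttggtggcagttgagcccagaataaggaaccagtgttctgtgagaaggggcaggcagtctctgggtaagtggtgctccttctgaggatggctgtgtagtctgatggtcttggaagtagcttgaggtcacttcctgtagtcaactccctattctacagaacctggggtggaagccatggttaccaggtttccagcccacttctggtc
Plin2: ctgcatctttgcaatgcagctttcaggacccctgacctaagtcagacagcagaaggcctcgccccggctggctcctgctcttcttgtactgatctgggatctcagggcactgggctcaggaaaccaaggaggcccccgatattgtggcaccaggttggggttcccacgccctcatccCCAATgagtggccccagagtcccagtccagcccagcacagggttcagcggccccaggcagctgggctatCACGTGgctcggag
Fasn: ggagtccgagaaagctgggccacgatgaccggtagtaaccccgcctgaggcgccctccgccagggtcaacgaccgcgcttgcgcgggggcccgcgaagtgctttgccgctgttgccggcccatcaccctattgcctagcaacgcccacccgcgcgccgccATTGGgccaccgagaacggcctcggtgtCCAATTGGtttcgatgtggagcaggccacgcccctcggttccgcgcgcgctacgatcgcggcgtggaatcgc
Cpt1a: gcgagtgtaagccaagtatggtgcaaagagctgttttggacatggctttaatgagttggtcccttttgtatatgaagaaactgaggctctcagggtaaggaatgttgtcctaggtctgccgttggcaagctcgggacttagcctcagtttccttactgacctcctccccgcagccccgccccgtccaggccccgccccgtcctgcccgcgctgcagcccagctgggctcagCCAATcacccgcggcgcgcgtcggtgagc
Motifs were searched on both strands over 250 bases before and 50 after the start in all 32851 promoters of the table. The palindromic core of the glucocorticoid response element occurs in 0.47% of these promoters and in none of the 7 of these genes (Acsl1 has a pair). The spaced direct repeat bound by PPAR and RXR receptors occurs in 0.04% of all and in none of the 7, and TATAAA in 13.62% of all and in none. CACGTG, the E-box, occurs in 7.15% of all promoters and, of these genes, in that of Plin2, at position -4. CCAAT, the box bound by NF-Y, occurs in 37.41% of all promoters and in 4 of the 7. In Fasn it starts at -90, -62 and -59, where the last pair overlap as CCAATTGG, in Plin2 at -73 and in Cpt1a at -19. The Lpin1 window holds none of these letters.

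Compared per length, in RPKM (CPM divided by gene length in kilobases), Scd2 had the highest level of the 10 in every group of both tables. Its RPKM was 224 ± 10.2 in full-length, 157 ± 5.53 in delta-IDR, 191 ± 8.23 in delta-CC-LCD and 310.0 ± 9.78 in control L929 (SD, n = 4 each), and 234 ± 9.06 with and 202 ± 7.02 without DEX in neurons given control peptide. In control L929, Plin2 followed with 215 ± 5.75 RPKM, then Scd1 with 111 ± 6.14, Lpl with 88.3 ± 4.12, Angptl4 with 51.5 ± 2.91, Cpt1a with 43.02 ± 0.491, Fasn with 30.9 ± 2.99, Pnpla2 with 19.5 ± 0.823, Acsl1 with 6.99 ± 0.293 and Lpin1 with 4.17 ± 0.242 RPKM. In neurons without DEX the order differed. Fasn came second with 32.9 ± 0.593 RPKM, Cpt1a, Plin2, Lpl and Scd1 lay between 6.01 and 7.24 RPKM, and Angptl4 was lowest with 0.286 ± 0.0485 RPKM. The tables were scaled separately, so levels are not compared between them by a test.

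**Figure D1:**
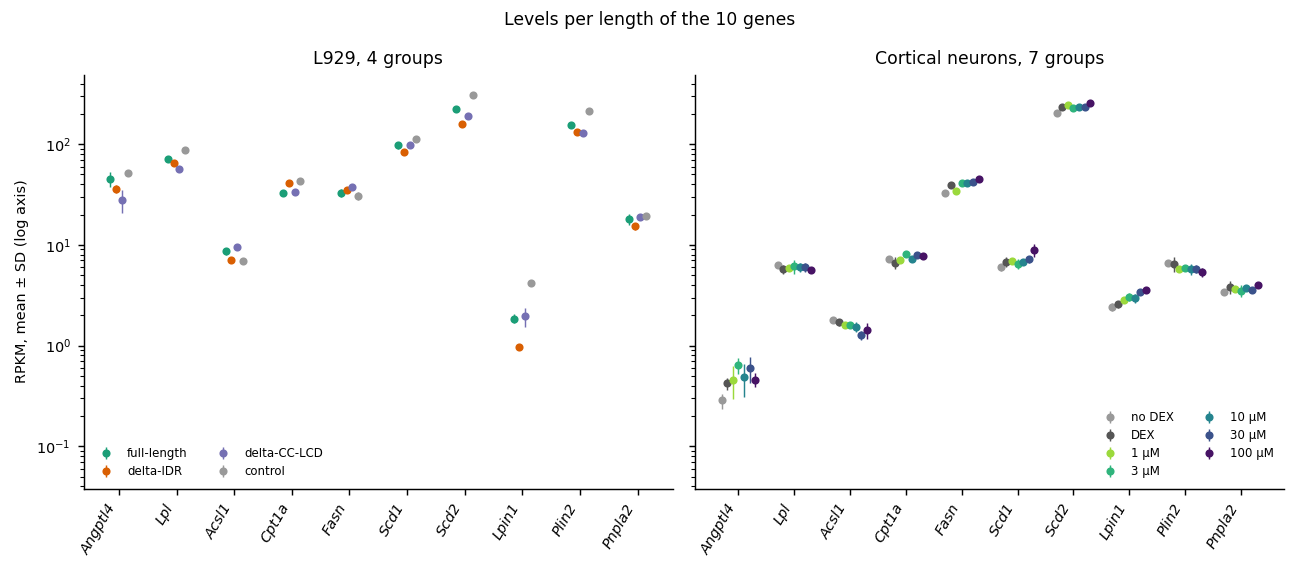
Mean RPKM ± SD (log axis, n = 4 libraries) of the 10 genes in the 4 L929 groups (left) and the 7 neuron groups (right). Scd2 is highest in every group, and Angptl4, at 51.5 RPKM in control L929, reaches at most 0.641 RPKM in a neuron group.

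In L929 cells, RNA of the triglyceride enzyme Lpin1, the droplet coat Plin2, the desaturase Scd2 and the lipase Lpl was lower in each construct group than in control, and Lpin1 in delta-IDR was 4.27-fold lower. Relative to full-length, delta-IDR cells had less Lpin1, Scd2 and Acsl1 RNA and more Cpt1a RNA. All 10 genes passed the filter on low counts in both tables. In L929, 7 of them passed the test in full-length over control (1 higher, 6 lower), where 59.1% of 14118 tested genes passed, 30.3% higher and 28.7% lower. The counts were 8 in delta-IDR over control (1 higher, 7 lower), where 64.4% of all tested genes passed (32.8% higher, 31.6% lower), and 9 in delta-CC-LCD over control (2 higher, 7 lower), where 64.6% passed (31.9% higher, 32.7% lower). Most tested genes differed from control in L929, so these counts alone say little about the 10. Their median log2 change over control was -0.24 in full-length, -0.42 in delta-IDR and, for delta-CC-LCD, -0.51, while that of all tested genes was -0.0052, -0.011 and -0.024. The 3 comparisons share the same 4 control libraries. Between constructs, 8 passed in delta-IDR over full-length (1 higher, 7 lower), against a background of 25.3% (11.7% higher, 13.6% lower). In delta-CC-LCD over full-length 4 passed, all lower, against 19.3% (8.41% higher, 10.9% lower), and in delta-IDR over delta-CC-LCD 7 (2 higher, 5 lower), against 22.3% (11.6% higher, 10.7% lower). These backgrounds cover tested genes of any level, and the 10 were not compared with genes of like level. The 10 were also chosen with earlier results of these data known.

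**Figure D2:**
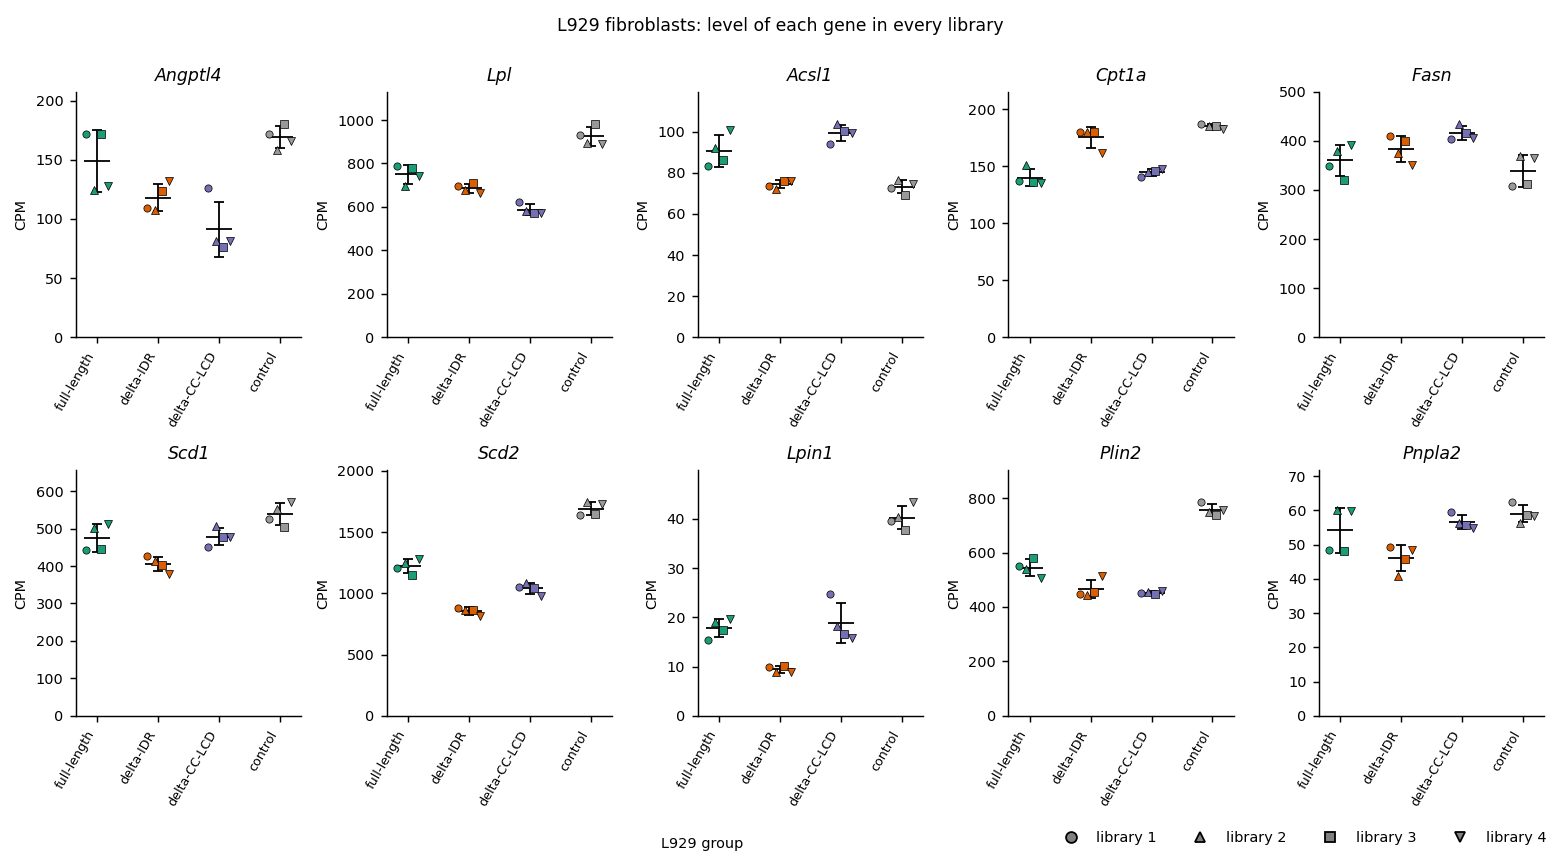
CPM of each gene (axes start at 0) in the 16 L929 libraries, by group, with the marker shape giving the library number and bars giving mean ± SD (n = 4). Lpin1, Plin2, Scd2 and Lpl lie below control in every construct library, and Lpin1 is lowest in the 4 delta-IDR libraries.

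Lpin1 encodes lipin 1, a phosphatidic acid phosphatase that makes diacylglycerol for triglyceride synthesis and also acts in the nucleus as a coregulator. It had 15.5, 18.98, 17.4 and 19.6 CPM in full-length, 9.88, 8.81, 10.2 and 8.79 CPM in delta-IDR and 24.7, 18.2, 16.7 and 15.9 CPM in delta-CC-LCD libraries. The control libraries had 39.6, 40.3, 37.7 and 43.4 CPM. All 12 construct libraries lay below all control libraries, and the delta-IDR libraries lay below all others. Relative to control Lpin1 fell by 1.17 on the log2 scale in full-length (SE 0.10, adjusted p = 1.29e-10), by 2.10 in delta-IDR (SE 0.11, adjusted p = 3.22e-15) and by 1.09 in delta-CC-LCD (SE 0.10, adjusted p = 3.58e-10). That is, delta-IDR cells held 4.27-fold less Lpin1 RNA than control cells. Lpin1 in delta-IDR was below full-length (log2 change -0.92 ± 0.11, adjusted p = 9.14e-07) and below delta-CC-LCD (-1.003 ± 0.11, adjusted p = 2.01e-07). Delta-CC-LCD over full-length did not pass (0.08 ± 0.11, adjusted p = 0.657).

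Plin2 encodes perilipin 2, the coat protein of lipid droplets in most tissues. It had 552, 538, 580.3 and 505 CPM in full-length, 449, 442, 456 and 513 CPM in delta-IDR and 451, 453, 449 and 458 CPM in delta-CC-LCD libraries. The control libraries had 785, 750.1, 737 and 755 CPM. No construct library reached the lowest control library. The log2 change over control was -0.48 ± 0.04, adjusted p = 6.1e-11 in full-length, -0.70 ± 0.04, adjusted p = 8.03e-15 in delta-IDR and -0.74 ± 0.04, adjusted p = 1.75e-15 in delta-CC-LCD. Plin2 was lower than in full-length in both delta-IDR (-0.23 ± 0.04, adjusted p = 0.0002) and delta-CC-LCD (-0.26 ± 0.04, adjusted p = 5.91e-05), and delta-IDR over delta-CC-LCD did not pass (0.04 ± 0.04, adjusted p = 0.58). In libraries 2 and 4 alone, delta-IDR over full-length was -0.13, adjusted p = 0.14.

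Pnpla2 encodes ATGL, the lipase that takes the first fatty acid off a stored triglyceride. It had 48.6, 60.02, 48.1 and 59.9 CPM in full-length, 49.3, 40.9, 45.7 and 48.5 CPM in delta-IDR, 59.5, 56.3, 55.8 and 54.9 CPM in delta-CC-LCD and 62.4, 56.4, 58.8 and 58.4 CPM in control libraries. Among the constructs only delta-IDR passed over control (-0.36 ± 0.07, adjusted p = 4.59e-05). Full-length over control was -0.12 ± 0.07, adjusted p = 0.121, but passed without full-length replicate 2 (-0.17, adjusted p = 0.0371) or 4 (-0.18, adjusted p = 0.0323) and in libraries 1 and 3 alone (-0.32, adjusted p = 0.000828). Delta-CC-LCD over control did not pass (-0.06 ± 0.07, adjusted p = 0.454), nor did delta-CC-LCD over full-length (0.06 ± 0.07, adjusted p = 0.572). Pnpla2 in delta-IDR was below delta-CC-LCD (-0.30 ± 0.07, adjusted p = 0.00195) and below full-length (-0.23 ± 0.07, adjusted p = 0.013). The last call was not made in libraries 1 and 3 alone, where the change was -0.02, adjusted p = 0.864. It was also lost without full-length replicate 2 (-0.18, adjusted p = 0.0672), full-length replicate 4 (-0.18, adjusted p = 0.0717) or delta-IDR replicate 2 (-0.18, adjusted p = 0.0783), in a fit of the compared groups only (adjusted p = 0.0525) and with pairs summed (adjusted p = 0.072).

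Scd1 and Scd2 encode stearoyl-CoA desaturases, which make monounsaturated fatty acids, and Scd2 is the main form of mouse brain. Scd2 had 1205, 1246, 1152 and 1282 CPM in full-length, 882, 865, 865 and 813 CPM in delta-IDR and 1054, 1085, 1044 and 978 CPM in delta-CC-LCD libraries. The control libraries had 1639, 1743, 1649.8 and 1729 CPM. The 4 groups did not overlap, with control highest, then full-length, delta-CC-LCD and delta-IDR. The change over control was -0.47 ± 0.04, adjusted p = 8.82e-12 in full-length, -0.98 ± 0.04, adjusted p = 2.06e-19 in delta-IDR and -0.70 ± 0.04, adjusted p = 5.64e-16 in delta-CC-LCD. Each neighbouring pair in that order differed, with -0.23 ± 0.04, adjusted p = 8.88e-05 for delta-CC-LCD over full-length and -0.28 ± 0.04, adjusted p = 2.26e-06 for delta-IDR over delta-CC-LCD. Delta-IDR over full-length was -0.51 ± 0.04, adjusted p = 2.46e-11. Scd1 had 442, 501, 444 and 512 CPM in full-length, 426, 414, 402 and 379.9 CPM in delta-IDR, 452, 508, 477 and 477 CPM in delta-CC-LCD and 525, 554, 504 and 570.5 CPM in control libraries. It was lower than control by smaller steps: -0.18 ± 0.05, adjusted p = 0.00308 in full-length, -0.41 ± 0.05, adjusted p = 8.49e-08 in delta-IDR and -0.17 ± 0.05, adjusted p = 0.00474 in delta-CC-LCD, the last lost with pairs summed (adjusted p = 0.0775). Scd1 in delta-IDR was below full-length (-0.23 ± 0.05, adjusted p = 0.00128; in libraries 1 and 3 alone -0.10, adjusted p = 0.197) and below delta-CC-LCD (-0.24 ± 0.05, adjusted p = 0.000887), while delta-CC-LCD over full-length did not pass (0.01 ± 0.05, adjusted p = 0.908).

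Fasn, the fatty acid synthase that makes palmitate, was higher than control where it passed. It had 349, 379, 321 and 393 CPM in full-length, 409, 376, 399.9 and 351 CPM in delta-IDR, 404, 435, 417 and 405 CPM in delta-CC-LCD and 308, 368, 312 and 365 CPM in control libraries. All delta-CC-LCD libraries were above all control libraries, and control libraries 1 and 3 were below control libraries 2 and 4. Fasn rose in delta-CC-LCD over control (0.30 ± 0.07, adjusted p = 0.00158), and full-length over control did not pass (0.09 ± 0.07, adjusted p = 0.284), though it did with no filter on low counts (adjusted p = 0.028). Delta-IDR over control passed (0.18 ± 0.07, adjusted p = 0.0328), but libraries 1 and 3 alone gave 0.39, adjusted p = 6.82e-07 and libraries 2 and 4 alone -0.01, adjusted p = 0.825. That call was lost without control replicate 1 (0.14, adjusted p = 0.101) or 3 (0.14, adjusted p = 0.102) and without delta-IDR replicate 1 (0.15, adjusted p = 0.0891) or 3 (0.17, adjusted p = 0.074). It was lost too in a fit of the compared groups only (adjusted p = 0.0596) and with pairs summed (adjusted p = 0.104). No pair of constructs differed for Fasn over all 4 libraries, though delta-IDR over full-length passed in libraries 1 and 3 alone (0.27, adjusted p = 0.000407) and delta-IDR over delta-CC-LCD in libraries 2 and 4 alone (-0.22, adjusted p = 0.00207). Closest to the threshold was delta-CC-LCD over full-length (0.20 ± 0.07, adjusted p = 0.0555), which passed without full-length replicate 4 (0.26, adjusted p = 0.0193) and with DESeq2 (adjusted p = 0.0114).

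Acsl1 encodes an acyl-CoA synthetase, which activates fatty acids, and Cpt1a the carnitine palmitoyltransferase that controls their entry into mitochondria. Acsl1 had 83.2, 92.04, 86.01 and 101 CPM in full-length, 73.6, 72.2, 76.2 and 75.8 CPM in delta-IDR, 94.1, 104, 100.5 and 99.3 CPM in delta-CC-LCD and 72.6, 76.6, 69.4 and 74.6 CPM in control libraries. All full-length and delta-CC-LCD libraries exceeded all control libraries, while delta-IDR overlapped control. Acsl1 rose over control in full-length (0.30 ± 0.05, adjusted p = 1.02e-05) and in delta-CC-LCD (0.44 ± 0.05, adjusted p = 1.34e-08), and delta-IDR over control did not pass (0.02 ± 0.05, adjusted p = 0.722). The difference between constructs was itself tested: Acsl1 in delta-IDR was below full-length (-0.28 ± 0.05, adjusted p = 0.000147) and below delta-CC-LCD (-0.42 ± 0.05, adjusted p = 3.92e-07). In libraries 1 and 3 alone, delta-IDR over full-length was -0.18, adjusted p = 0.0581. Delta-CC-LCD over full-length was 0.14 ± 0.05, adjusted p = 0.0669, and passed without full-length replicate 4 (0.21, adjusted p = 0.00463), without delta-CC-LCD replicate 1 (0.17, adjusted p = 0.0248) and with DESeq2 (adjusted p = 0.0478).

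Cpt1a had 137, 151, 136 and 135 CPM in full-length, 179.8, 180.1, 179.6 and 162 CPM in delta-IDR, 141, 145, 146 and 147 CPM in delta-CC-LCD and 187, 186, 185 and 182 CPM in control libraries. Full-length and delta-CC-LCD libraries lay below all delta-IDR and control libraries. Cpt1a fell relative to control in full-length (-0.40 ± 0.04, adjusted p = 1.41e-09) and delta-CC-LCD (-0.35 ± 0.04, adjusted p = 1.43e-08), and delta-IDR over control did not pass (-0.08 ± 0.04, adjusted p = 0.107). Cpt1a was higher in delta-IDR than in full-length (0.33 ± 0.04, adjusted p = 8.11e-07) and than in delta-CC-LCD (0.28 ± 0.04, adjusted p = 1.01e-05), and delta-CC-LCD over full-length did not pass (0.05 ± 0.04, adjusted p = 0.477).

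Lpl encodes lipoprotein lipase, and Angptl4 a secreted inhibitor of that enzyme. Lpl had 790.4, 694, 777 and 741 CPM in full-length, 694, 676, 709 and 663 CPM in delta-IDR, 624, 582, 571 and 574 CPM in delta-CC-LCD and 933, 894, 983 and 891 CPM in control libraries. All construct libraries were below all control libraries. The change over control was -0.30 ± 0.04, adjusted p = 3.18e-07 in full-length, -0.43 ± 0.04, adjusted p = 2.57e-10 in delta-IDR and -0.66 ± 0.04, adjusted p = 1.75e-14 in delta-CC-LCD. Lpl in delta-CC-LCD was below full-length (-0.35 ± 0.04, adjusted p = 6.68e-07), and Lpl in delta-IDR was above delta-CC-LCD (0.22 ± 0.04, adjusted p = 0.000189). Delta-IDR over full-length also passed (-0.13 ± 0.04, adjusted p = 0.0211), but was lost without full-length replicate 1 (-0.10, adjusted p = 0.107) or 3 (-0.11, adjusted p = 0.0685) and without delta-IDR replicate 2 (-0.12, adjusted p = 0.0586) or 4 (-0.11, adjusted p = 0.0693). It was lost as well with pairs summed (adjusted p = 0.126) and in libraries 2 and 4 alone (adjusted p = 0.122).

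Angptl4 had 171, 125, 172 and 128 CPM in full-length, 109.6, 107, 124 and 132 CPM in delta-IDR, 126, 81.6, 76.3 and 81.5 CPM in delta-CC-LCD and 172, 158, 181 and 166 CPM in control libraries. Full-length libraries 1 and 3 sat within the control range and libraries 2 and 4 below it, and delta-CC-LCD replicate 1 sat well above the other 3 of its group. Angptl4 was lower than control in delta-IDR (-0.52 ± 0.16, adjusted p = 0.0115) and in delta-CC-LCD (-0.89 ± 0.16, adjusted p = 0.000289), and full-length over control did not pass (-0.18 ± 0.16, adjusted p = 0.34). It did pass there in libraries 2 and 4 alone (-0.36, adjusted p = 0.000786). In libraries 1 and 3 alone the adjusted p was 0.115 for delta-IDR and 0.0558 for delta-CC-LCD over control, and with pairs summed delta-IDR had 0.0606. Delta-CC-LCD over full-length passed (-0.71 ± 0.16, adjusted p = 0.00841), but not in a fit of the compared groups only (adjusted p = 0.0721), in libraries 1 and 3 alone (adjusted p = 0.154) or with pairs summed (adjusted p = 0.09). Delta-IDR over full-length did not pass (-0.34 ± 0.16, adjusted p = 0.153), nor did delta-IDR over delta-CC-LCD (0.37 ± 0.16, adjusted p = 0.128), which passed without delta-CC-LCD replicate 1 (0.55, adjusted p = 0.00781).

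**Figure D3:**
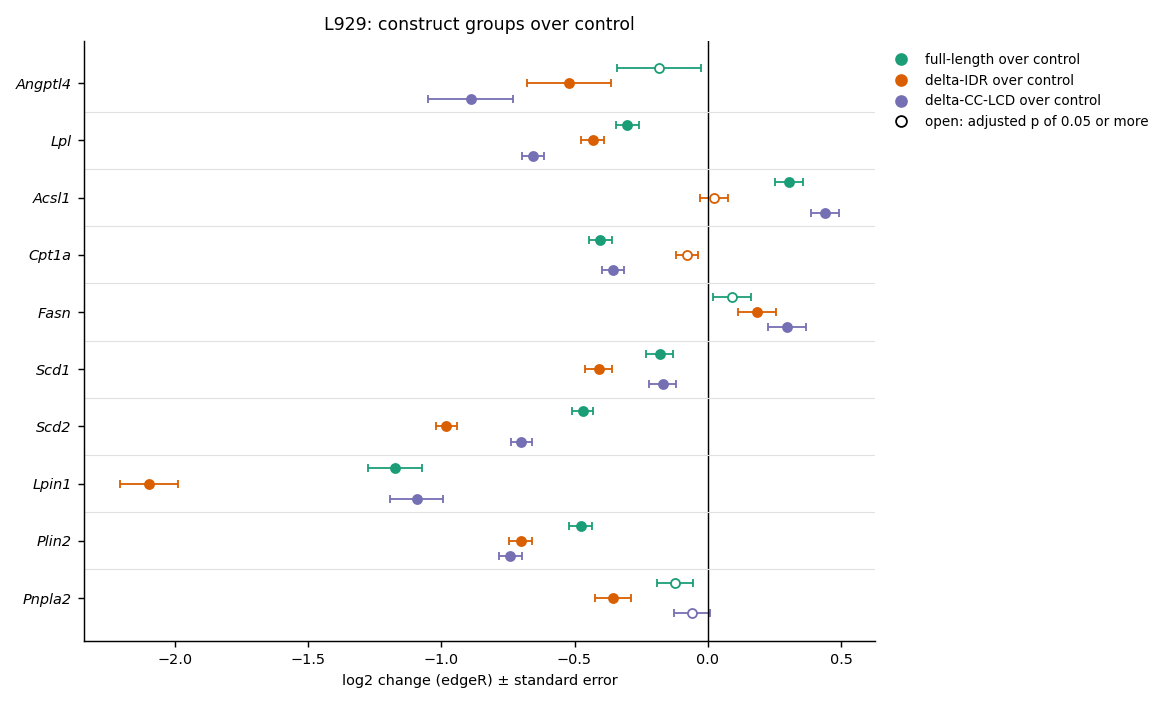
Log2 change over control ± standard error (edgeR, n = 4 libraries a group) of the 10 genes in the 3 L929 construct groups, with filled points for an adjusted p below 0.05. Lpin1 in delta-IDR is farthest to the left at -2.10, and Acsl1 and Fasn are the genes to the right of 0.

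Other genes of the same pathways, 122 in 7 lists of which 99 were tested in L929, split between both directions. Over control, 28 were higher and 28 lower in full-length, 30 higher and 38 lower in delta-IDR, and 30 higher and 34 lower in delta-CC-LCD. Of all tested genes, 59.1%, 64.4% and 64.6% passed in the same order. Between constructs, 10 were higher and 22 lower in delta-IDR over full-length, where 25.3% of all tested genes passed. In delta-CC-LCD over full-length 14 were higher and 18 lower, where 19.3% passed. In delta-IDR over delta-CC-LCD 12 were higher and 18 lower, where 22.3% passed. Of 13 tested lipid droplet genes, 4 were higher and 4 lower in full-length over control, 4 higher and 6 lower in delta-IDR, and 4 higher and 4 lower in delta-CC-LCD. Their median log2 change was -0.098, -0.64 and -0.47 in the same order, beside the medians of all genes given above. Some listed genes lay near the floor: Cidea, Plin1 and Cideb averaged 0.199, 0.186 and 0.380 CPM in delta-IDR. In control they averaged 0.638, 0.729 and 0.599 CPM. The medians count such genes like the others. Fitm2, needed for droplet formation, had 89.6 ± 2.08 CPM in full-length and 45.96 ± 1.73 CPM in control (0.96 ± 0.05, adjusted p = 3.98e-17). Delta-IDR had 79.4 ± 3.13 and delta-CC-LCD 88.2 ± 3.74 CPM of Fitm2. Plin4, another perilipin, had 921 ± 63.6 CPM in delta-CC-LCD and 410.1 ± 15.5 CPM in control (1.17 ± 0.06, adjusted p = 4.37e-13). Full-length had 779 ± 71.8 and delta-IDR 627 ± 33.8 CPM of Plin4. Lipe, which encodes hormone-sensitive lipase, fell over control in full-length (-1.18 ± 0.16, adjusted p = 2.56e-07), in delta-IDR (-1.38 ± 0.16, adjusted p = 1.61e-08) and in delta-CC-LCD (-1.04 ± 0.16, adjusted p = 1.56e-06). G0s2, which encodes an inhibitor of ATGL, also fell in full-length (-1.35 ± 0.20, adjusted p = 1.08e-06), in delta-IDR (-1.32 ± 0.20, adjusted p = 1.11e-06) and in delta-CC-LCD (-1.47 ± 0.20, adjusted p = 2.32e-07). Hilpda, which encodes another such inhibitor, fell in full-length (-0.84 ± 0.21, adjusted p = 0.00337) and in delta-IDR (-1.32 ± 0.21, adjusted p = 0.000114), and its change in delta-CC-LCD did not pass (-0.47 ± 0.20, adjusted p = 0.0557).

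Among 15 tested regulators, 6 were higher and 6 lower in full-length over control, 5 higher and 7 lower in delta-IDR, and 6 higher and 6 lower in delta-CC-LCD. Their medians were 0.048, -0.13 and -0.068. Cebpd, an adipogenic transcription factor, had 90.4 ± 13.4 CPM in full-length and 15.7 ± 0.862 CPM in control (2.52 ± 0.10, adjusted p = 7.15e-14). Delta-IDR had 69.2 ± 5.17 and delta-CC-LCD 86.9 ± 7.24 CPM of Cebpd. Ppargc1a, a coactivator of oxidative genes, had 5.37 ± 0.769 CPM in delta-CC-LCD and 32.5 ± 3.64 CPM in control (-2.60 ± 0.11, adjusted p = 4.12e-19). Full-length had 7.60 ± 0.805 and delta-IDR 9.18 ± 0.776 CPM of Ppargc1a. Of 15 tested genes of fatty acid synthesis and desaturation, 4 were higher in each construct group over control, and 6 were lower in full-length, 6 in delta-IDR and 7 with delta-CC-LCD. Their medians were -0.18, 0.013 and -0.0038. Srebf1, which encodes the lipogenic factor SREBP1, fell in delta-CC-LCD (-1.15 ± 0.06, adjusted p = 1.1e-13). It also fell in full-length (-0.95 ± 0.06, adjusted p = 4.2e-12). Its mean was 141 ± 14.3 CPM in full-length, 133 ± 10.3 in delta-IDR, 123 ± 6.14 in delta-CC-LCD and 272 ± 9.32 in control. Of 22 tested oxidation genes, 2 were higher and 6 lower in full-length, 4 higher and 8 lower in delta-IDR, and 3 higher and 7 lower in delta-CC-LCD over control. Their medians were -0.032, -0.063 and -0.03. Pdk4, a kinase that shuts off pyruvate dehydrogenase, had 181 ± 9.69 CPM in full-length and 33.3 ± 2.51 CPM in control (2.44 ± 0.07, adjusted p = 1.85e-18). Delta-IDR had 163 ± 10.5 and delta-CC-LCD 173 ± 17.2 CPM of Pdk4. Cpt2, the inner membrane partner of Cpt1a, fell in full-length (-0.51 ± 0.07, adjusted p = 8.04e-07). Its mean was 28.2 ± 2.68 CPM in full-length, 28.3 ± 0.707 in delta-IDR, 27.5 ± 3.28 in delta-CC-LCD and 40.04 ± 2.10 in control.

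Of 13 tested genes of uptake, binding and activation, 4 were higher and 3 lower in full-length over control, 5 higher and 5 lower in delta-IDR, and 4 higher and 5 lower in delta-CC-LCD. Their medians were 0.017, 0.032 and -0.065. Fabp4, a fatty acid binding protein, had 755 ± 60.6 CPM in full-length and 382 ± 15.7 CPM in control (0.98 ± 0.08, adjusted p = 1.6e-08). It made up nearly all of the 6 summed adipocyte markers, which had 686 to 831 CPM in full-length, 462 to 605 in delta-IDR, 693 to 754 in delta-CC-LCD and 371 to 403 in control libraries. Of these, Lep was at 0 in every L929 group and Adipoq and Retn at or near 0. Cd36, a fatty acid transporter, had 75.1 ± 2.15 CPM in delta-IDR and 53.5 ± 3.03 CPM in full-length (0.49 ± 0.05, adjusted p = 2.33e-08). Of 15 tested genes of glycerolipid synthesis, where Lpin1 acts, 6 were higher in each construct group over control, and 3 were lower in full-length, 5 in delta-IDR and 3 with delta-CC-LCD. Their medians were 0.074, 0.0063 and 0.11. Agpat5, an acyltransferase, had 71.9 ± 3.15 CPM in delta-CC-LCD and 39.99 ± 1.18 CPM in control (0.85 ± 0.05, adjusted p = 2.56e-15), and Dgat2, which makes triglyceride, fell there (-0.81 ± 0.12, adjusted p = 8.25e-07). Full-length had 67.1 ± 2.49 and delta-IDR 63.0 ± 1.89 CPM of Agpat5. Dgat2 had 10.3 ± 0.369 CPM in full-length, 8.17 ± 1.30 in delta-IDR, 8.06 ± 1.30 in delta-CC-LCD and 14.1 ± 1.77 in control. Of 6 tested genes of lipoprotein lipase handling, 2 were higher and 0 lower in full-length over control, 2 higher and 1 lower in delta-IDR, and 3 higher and 2 lower in delta-CC-LCD. Their medians were -0.0073, -0.013 and 0.023. Vldlr, the VLDL receptor, had 354 ± 10.03 CPM in full-length and 181 ± 8.06 CPM in control (0.96 ± 0.05, adjusted p = 1.33e-17). Delta-IDR had 260 ± 15.1 and delta-CC-LCD 338 ± 20.7 CPM of Vldlr.

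In neurons, RNA of Lpin1 was higher at 30 and 100 µM interfering peptide than in control peptide with DEX, Fasn and Scd2 were higher with DEX than without and higher again at 100 µM, and Acsl1 was lower at 30 µM. With pairs summed, the Scd2 call at 100 µM and the Acsl1 call were lost. Fasn was also called lower at 1 µM, a call likewise lost with pairs summed. With DEX over no DEX, both under control peptide, 2 of the 10 passed, both higher, where 10.8% of 17837 tested genes passed (5.44% higher, 5.35% lower). Against control peptide with DEX, the interfering peptide gave 1 at 1 µM (lower), where 2.29% of tested genes passed (1.4% higher, 0.891% lower), and 1 at 3 µM (higher), where 5.25% passed (2.88% higher, 2.37% lower). It gave 0 at 10 µM, where 5.38% passed (3.17% higher, 2.21% lower), 3 at 30 µM (2 higher, 1 lower), where 15.9% passed (8.62% higher, 7.26% lower), and 5 at 100 µM (all higher), where 23.4% passed (11.9% higher, 11.5% lower). At 10 µM, 1 gene had an unadjusted p below 0.05 in edgeR, and DESeq2 also called 0. The 5 doses share the same 4 control peptide libraries, which DEX over no DEX also uses. Over the 20 interfering peptide libraries, 3 of the 10 had a slope on log10 dose that passed (all rising), where 19.4% of 17349 tested genes passed (9.46% rising, 9.91% falling). DEX with 100 µM interfering peptide over no DEX gave 6 (4 higher, 2 lower), where 35.1% passed (17.4% higher, 17.7% lower). The group without DEX had control peptide, so DEX and interfering peptide cannot be told apart in that comparison for any gene.

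**Figure D4:**
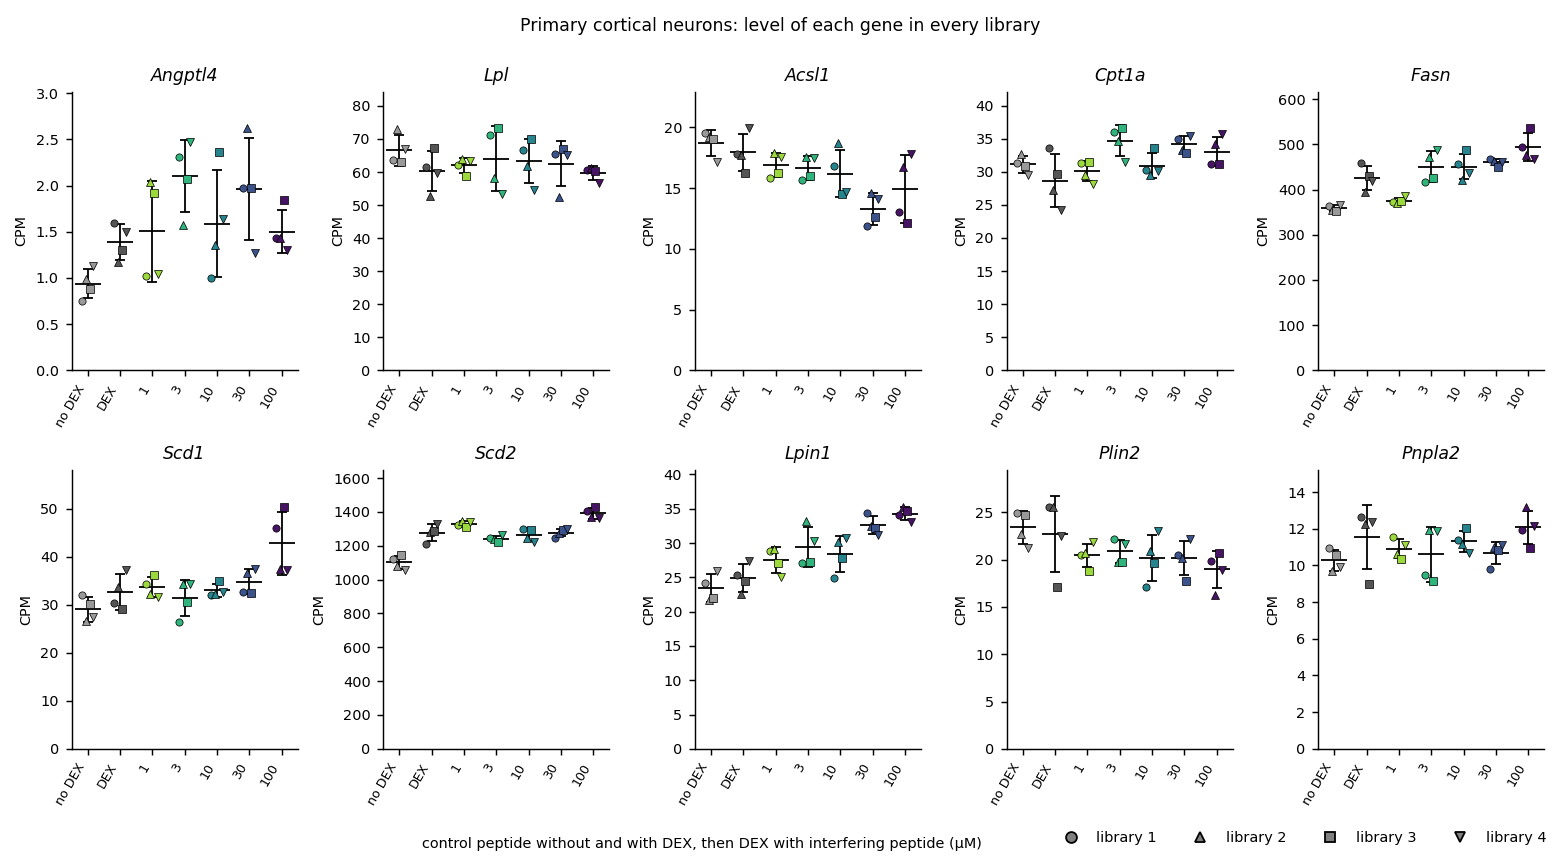
CPM of each gene (axes start at 0) in the 28 neuron libraries, by group, with the marker shape giving the library number and bars giving mean ± SD (n = 4). Lpin1 at 30 and 100 µM lies above all control peptide libraries, and at 100 µM Scd1 libraries 1 and 3 lie above libraries 2 and 4.

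Under control peptide, Lpin1 had 25.3, 22.6, 24.4 and 27.4 CPM with DEX and 24.2, 21.7, 21.9 and 25.99 CPM without DEX. With interfering peptide it had 28.8, 29.1, 27.1 and 25.05 CPM at 1 µM, 27.2, 33.2, 27.2 and 30.3 CPM at 3 µM, 24.9, 30.2, 27.8 and 30.7 CPM at 10 µM, 34.4, 32.6, 32.2 and 31.2 CPM at 30 µM and 34.1, 35.3, 34.6 and 33.1 CPM at 100 µM. All libraries at 30 and 100 µM were above all libraries with control peptide, and lower doses overlapped them. Over control peptide with DEX, Lpin1 rose at 30 µM (0.39 ± 0.08, adjusted p = 0.000516) and at 100 µM (0.46 ± 0.08, adjusted p = 1.95e-05), and both calls held with pairs summed (adjusted p = 0.0247 and 0.00286). It was 0.14 ± 0.08, adjusted p = 0.413 at 1 µM, 0.24 ± 0.08, adjusted p = 0.0574 at 3 µM and 0.19 ± 0.08, adjusted p = 0.163 at 10 µM. At 3 µM it passed without control peptide replicate 4 (0.29, adjusted p = 0.0463) and without interfering peptide replicate 1 (0.28, adjusted p = 0.0388) or 3 (0.28, adjusted p = 0.0393). On the log2 scale, the slope per 10-fold dose was 0.15 ± 0.04, adjusted p = 0.00169, and 0.13, adjusted p = 0.116 without the 100 µM libraries. DEX over no DEX did not pass (0.09 ± 0.08, adjusted p = 0.527). Over no DEX, DEX with 100 µM interfering peptide gave 0.55 ± 0.08, adjusted p = 3.76e-07.

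Under control peptide, Fasn had 458, 395, 431 and 420.0 CPM with DEX and 364, 356, 353 and 366 CPM without DEX. With interfering peptide it had 373, 369.9, 374 and 385 CPM at 1 µM, 417, 472, 426 and 488 CPM at 3 µM, 456, 422, 488 and 437 CPM at 10 µM, 468, 464, 451 and 461 CPM at 30 µM and 495, 477, 536 and 469 CPM at 100 µM. All libraries given DEX were above those without it, and the 100 µM libraries were above all control peptide libraries. Fasn rose with DEX (0.24 ± 0.05, adjusted p = 0.000484) and, over control peptide with DEX, at 100 µM (0.21 ± 0.05, adjusted p = 0.000663), with adjusted p = 0.048 and 0.0437 when pairs were summed. At 1 µM Fasn fell (-0.18 ± 0.05, adjusted p = 0.0229), but the call was lost without control peptide replicate 1 (-0.15, adjusted p = 0.119) or 3 (-0.18, adjusted p = 0.0535) and without interfering peptide replicate 2 (-0.17, adjusted p = 0.0746) or 3 (-0.18, adjusted p = 0.057). It was lost as well in libraries 2 and 4 alone (adjusted p = 0.0843) and with pairs summed (adjusted p = 0.407). The other doses did not pass: 0.08 ± 0.05, adjusted p = 0.34 at 3 µM, 0.08 ± 0.05, adjusted p = 0.329 at 10 µM and 0.11 ± 0.05, adjusted p = 0.0921 at 30 µM, the last passing without control peptide replicate 1 (0.14, adjusted p = 0.0393). The slope per 10-fold dose was 0.16 ± 0.03, adjusted p = 2.4e-05, and adjusted p was 0.0833 in libraries 2 and 4 alone. DEX with 100 µM interfering peptide over no DEX gave 0.46 ± 0.05, adjusted p = 1.53e-10.

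Under control peptide, Scd2 had 1209.8, 1281, 1286 and 1329 CPM with DEX and 1122, 1083, 1144 and 1059 CPM without DEX, groups that did not overlap (0.21 ± 0.03, adjusted p = 3.61e-05; with pairs summed, adjusted p = 0.0349). At 100 µM interfering peptide it had 1404, 1368, 1431 and 1364 CPM, all above control peptide with DEX (0.12 ± 0.03, adjusted p = 0.00622). That call was lost with pairs summed (adjusted p = 0.15) and in libraries 2 and 4 alone (0.07, adjusted p = 0.169). From 1 to 30 µM Scd2 averaged 1329 ± 16.6, 1242 ± 15.2, 1264 ± 37.7 and 1278 ± 22.5 CPM (SD, n = 4 each), and none passed over control peptide. DEX with 100 µM interfering peptide over no DEX gave 0.34 ± 0.03, adjusted p = 1.26e-10.

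Scd1 had 46.03, 37.5, 50.5 and 37.3 CPM at 100 µM interfering peptide, against 30.4, 33.8, 29.2 and 37.4 CPM in control peptide with DEX. Libraries 1 and 3 at 100 µM stood clear of every control peptide library, while libraries 2 and 4 lay at its upper end. Scd1 passed over all 4 libraries (0.39 ± 0.09, adjusted p = 0.00107), with 0.69, adjusted p = 4.37e-08 in libraries 1 and 3 alone, 0.07, adjusted p = 0.601 in libraries 2 and 4 alone and adjusted p = 0.062 with pairs summed. From 1 to 30 µM Scd1 averaged 33.6 ± 2.08, 31.4 ± 3.73, 33.0 ± 1.33 and 34.8 ± 2.62 CPM (SD, n = 4 each), and none passed. Its slope per 10-fold dose was 0.17 ± 0.05, adjusted p = 0.00633, but 0.04, adjusted p = 0.671 without the 100 µM libraries, and it did not pass with pairs summed (adjusted p = 0.0803) or in either pair of libraries alone (adjusted p = 0.167 for 1 and 3, 0.104 for 2 and 4). Without DEX, Scd1 had 32.1, 26.6, 30.1 and 27.4 CPM, and DEX over no DEX was 0.17 ± 0.09, adjusted p = 0.231. That comparison passed in libraries 2 and 4 alone (0.40, adjusted p = 0.00141). DEX with 100 µM interfering peptide over no DEX gave 0.56 ± 0.09, adjusted p = 3.58e-06.

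Under control peptide, Cpt1a had 33.7, 27.2, 29.6 and 24.2 CPM with DEX and 31.4, 32.6, 30.9 and 29.6 CPM without DEX. With interfering peptide it had 31.3, 29.5, 31.4 and 28.2 CPM at 1 µM, 36.05, 34.6, 36.6 and 31.4 CPM at 3 µM, 30.3, 29.6, 33.7 and 30.2 CPM at 10 µM, 34.9, 33.3, 32.9 and 35.4 CPM at 30 µM and 31.2, 34.2, 31.2 and 35.7 CPM at 100 µM. Every interfering peptide group overlapped control peptide with DEX, whose own libraries spread widely. Cpt1a passed over control peptide at 3 µM (0.27 ± 0.08, adjusted p = 0.0249), 30 µM (0.25 ± 0.08, adjusted p = 0.0179) and 100 µM (0.21 ± 0.08, adjusted p = 0.0437), and none of these held with pairs summed (adjusted p = 0.266, 0.159 and 0.187). In libraries 1 and 3 alone the change was 0.20, adjusted p = 0.206 at 3 µM, 0.09, adjusted p = 0.554 at 30 µM and -0.02, adjusted p = 0.9 at 100 µM. Without control peptide replicate 2 it was 0.24, adjusted p = 0.0995 at 3 µM, 0.22, adjusted p = 0.0674 at 30 µM and 0.18, adjusted p = 0.118 at 100 µM. Without control peptide replicate 4 it was 0.20, adjusted p = 0.16 at 3 µM, 0.18, adjusted p = 0.123 at 30 µM and 0.13, adjusted p = 0.237 at 100 µM. The calls were also lost without interfering peptide replicate 1, 2 or 3 at 3 µM (adjusted p = 0.0566, 0.056 and 0.0676), replicate 1 at 30 µM (adjusted p = 0.0523) and replicate 2 or 4 at 100 µM (adjusted p = 0.106 and 0.151). A fit of the compared groups only lost those at 3 µM (adjusted p = 0.13) and 100 µM (adjusted p = 0.0865). Over no DEX, Cpt1a did not pass with DEX and control peptide (-0.12 ± 0.08, adjusted p = 0.335) or with DEX and 100 µM interfering peptide (0.09 ± 0.08, adjusted p = 0.398).

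Under control peptide, Acsl1 had 17.8, 17.7, 16.3 and 19.9 CPM with DEX and 19.6, 19.2, 19.0 and 17.1 CPM without DEX. With interfering peptide it had 15.9, 17.9, 16.2 and 17.6 CPM at 1 µM, 15.7, 17.5, 15.99 and 17.5 CPM at 3 µM, 16.8, 18.7, 14.5 and 14.7 CPM at 10 µM, 11.8, 14.6, 12.6 and 14.1 CPM at 30 µM and 13.03, 16.7, 12.1 and 17.8 CPM at 100 µM. The 30 µM libraries lay below all control peptide libraries, and at 100 µM libraries 1 and 3 lay below libraries 2 and 4. Acsl1 fell at 30 µM (-0.43 ± 0.10, adjusted p = 0.0027; with pairs summed, adjusted p = 0.0628). At 100 µM it missed the threshold (-0.27 ± 0.10, adjusted p = 0.0506) and passed without control peptide replicate 3 (-0.31, adjusted p = 0.0346) and without interfering peptide replicate 2 (-0.33, adjusted p = 0.0317) or 4 (-0.36, adjusted p = 0.0139). Its slope per 10-fold dose was -0.13 ± 0.05, adjusted p = 0.0614, and it passed without interfering peptide replicate 2 (-0.16, adjusted p = 0.0296) or 4 (-0.18, adjusted p = 0.015) at 100 µM and without the whole 100 µM group (-0.21, adjusted p = 0.0378). DEX with 100 µM interfering peptide over no DEX passed (-0.33 ± 0.10, adjusted p = 0.00982), but not without interfering peptide replicate 1 (-0.27, adjusted p = 0.0548) or 3 (-0.24, adjusted p = 0.0781), in libraries 2 and 4 alone (-0.07, adjusted p = 0.721) or with pairs summed (adjusted p = 0.0881).

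Plin2 had 19.8, 16.3, 20.7 and 18.95 CPM at 100 µM interfering peptide, 25.6, 25.6, 17.1 and 22.5 CPM in control peptide with DEX and 24.9, 22.7, 24.7 and 21.3 CPM without DEX. The 100 µM libraries lay below all libraries without DEX, and control peptide replicate 3 lay below the other 3 of its group. Over no DEX, DEX with 100 µM interfering peptide passed (-0.30 ± 0.10, adjusted p = 0.0144), but not with pairs summed (adjusted p = 0.0665), in libraries 1 and 3 alone (adjusted p = 0.0664), without interfering peptide replicate 2 (-0.24, adjusted p = 0.0819) or without replicate 1 of the group without DEX (-0.27, adjusted p = 0.0507). The comparison with no DEX changes both DEX and the peptide. Over control peptide with DEX the 100 µM group missed the threshold (-0.26 ± 0.10, adjusted p = 0.0506). It passed without control peptide replicate 3 (-0.37, adjusted p = 0.00362) or interfering peptide replicate 3 (-0.31, adjusted p = 0.0379). At 30 µM the change was -0.17 ± 0.10, adjusted p = 0.246, and -0.28, adjusted p = 0.0362 without control peptide replicate 3.

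Lpl, Pnpla2 and Angptl4 passed none of the 7 neuron comparisons between groups and no slope. Lpl lay between 52.5 and 73.3 CPM over all 28 libraries, with 59.7 ± 2.04 CPM at 100 µM interfering peptide, 60.3 ± 5.97 CPM in control peptide with DEX and 66.6 ± 4.65 CPM without DEX (SD, n = 4 each). Pnpla2 lay between 8.96 and 13.2 CPM, with 12.1 ± 0.915 CPM at 100 µM interfering peptide, 11.6 ± 1.74 CPM in control peptide with DEX and 10.3 ± 0.575 CPM without DEX. Angptl4 had 11 to 37 counts per library, so that only large differences could be detected. It had 1.59, 1.17, 1.301 and 1.497 CPM with and 0.752, 0.991, 0.882 and 1.13 CPM without DEX, groups that did not overlap, although the change did not pass (0.56 ± 0.31, adjusted p = 0.237). Lpl at 100 µM interfering peptide over no DEX was -0.16 ± 0.09, adjusted p = 0.184, and passed in a fit of the compared groups only (-0.17, adjusted p = 0.0183).

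**Figure D5:**
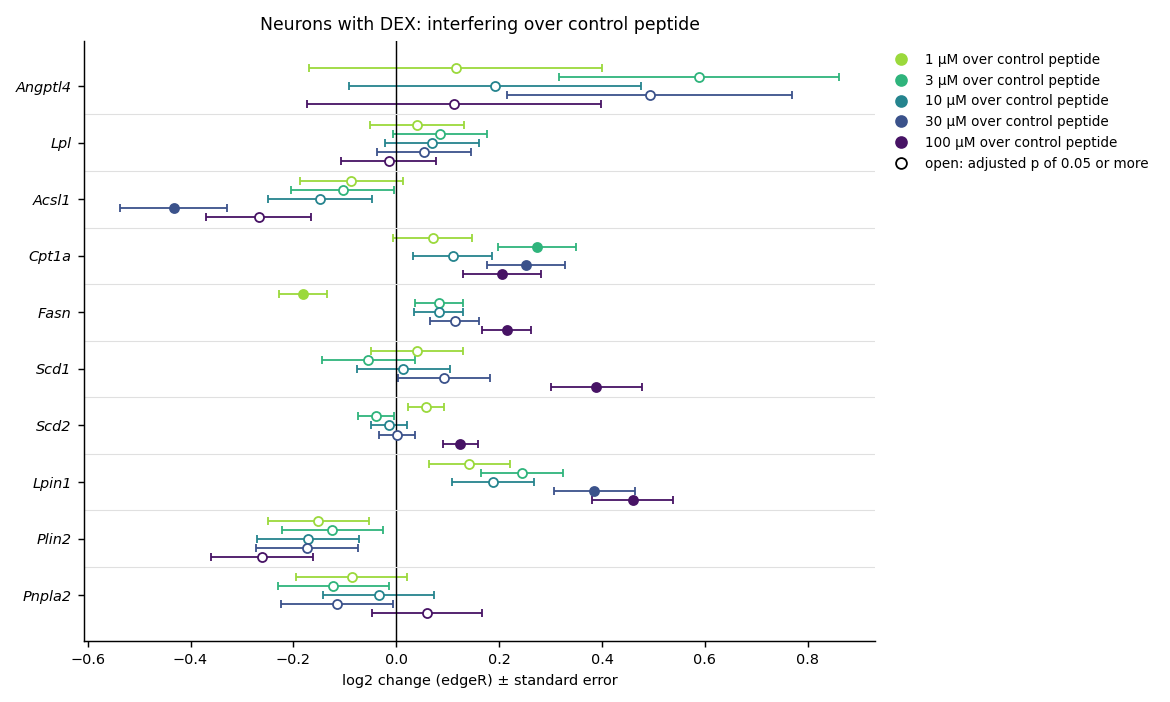
Log2 change over control peptide with DEX ± standard error (edgeR, n = 4 libraries a group) of the 10 genes at 5 doses of interfering peptide, with filled points for an adjusted p below 0.05. Lpin1 is to the right of 0 at every dose and filled at 30 and 100 µM, and Angptl4 has the widest bars.

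Other genes of the 7 pathway lists, 103 tested in neurons, were called in 8 cases with DEX over no DEX (7 higher, 1 lower). Of all tested genes, 10.8% passed there. The 8 included Srebf1 (71.2 ± 3.27 CPM with DEX, 57.3 ± 0.915 CPM without, 0.31 ± 0.07, adjusted p = 0.00247) and Vldlr (0.28 ± 0.06, adjusted p = 0.00272). At 1 µM interfering peptide edgeR called 0 of the 103, with 13 at an unadjusted p below 0.05 and 1 by DESeq2. There were 9 called at 3 µM (7 higher, 2 lower), 9 at 10 µM (6 higher, 3 lower), 20 at 30 µM (10 higher, 10 lower) and 21 at 100 µM (11 higher, 10 lower), while 100 µM over no DEX gave 42 (23 higher, 19 lower). The shares of all tested genes were 2.29% at 1 µM, 5.25% at 3 µM and 5.38% at 10 µM. They were 15.9% at 30 µM, 23.4% at 100 µM and 35.1% at 100 µM over no DEX. At 100 µM the median log2 change of all tested genes was -0.012, and those of the 7 lists lay between -0.23 for droplet proteins and 0.079 for regulators. Of 6 tested genes of lipoprotein lipase handling, 1 was higher and 2 lower at 100 µM. Among the lower, Vldlr had 102 ± 6.26 CPM at 100 µM and 148 ± 13.5 CPM in control peptide (-0.54 ± 0.06, adjusted p = 3.33e-08). Of 20 tested genes of synthesis and desaturation, 4 were higher and 3 lower at 100 µM. Elovl6, which elongates palmitate, had 153 ± 1.08 CPM at 100 µM and 116 ± 4.08 CPM in control peptide (0.40 ± 0.04, adjusted p = 1.18e-09). Oxsm, of mitochondrial fatty acid synthesis, fell (-0.87 ± 0.14, adjusted p = 6.01e-06).

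Of 15 tested genes of uptake, binding and activation, 3 were higher and 3 lower at 100 µM. Acsl4, an acyl-CoA synthetase that prefers arachidonate, had 62.1 ± 4.24 CPM at 100 µM and 38.8 ± 2.48 CPM in control peptide (0.68 ± 0.07, adjusted p = 4.32e-10). Of 12 tested genes of glycerolipid synthesis, 1 was higher and 1 lower: Lpin2, a paralogue of Lpin1 (0.17 ± 0.05, adjusted p = 0.0088), and Dgat2 (-0.63 ± 0.15, adjusted p = 0.00114). Of 15 tested regulators, 1 passed, Insig1, an SREBP target that retains SREBP in the endoplasmic reticulum (0.65 ± 0.09, adjusted p = 1.44e-05). Of 11 tested lipid droplet genes, 1 passed, Fitm2, which was lower (-0.32 ± 0.10, adjusted p = 0.016), and of 24 tested oxidation genes, 1 passed, Etfdh, which was higher (0.23 ± 0.07, adjusted p = 0.0142). At 100 µM, 2 of 5 neuron markers were also higher (summed 2695 to 2845 CPM at 100 µM, 2428 to 2626 CPM in control peptide with DEX), and 2 of 5 oligodendrocyte markers were lower (58.5 to 65.2 CPM at 100 µM, 62.8 to 79.9 CPM in control peptide with DEX). Of 6 astrocyte markers, 1 was lower at 100 µM, Aldh1l1 (summed 302 to 314 CPM at 100 µM, 283 to 327 CPM in control peptide with DEX). At each lower dose, no list had more than 1 marker that passed. On the slope with dose, 3 of 5 endothelial markers rose (summed 66.4 to 78.3 CPM at 1 µM, 82.5 to 90.3 CPM at 100 µM), as did 2 of 5 neuron markers (2403 to 2494 CPM at 1 µM), while 2 of 5 oligodendrocyte markers fell (69.1 to 74.4 CPM at 1 µM). Of the 6 astrocyte markers, 2 rose with dose and 1 fell. With DEX, 2 of 5 endothelial markers were higher than without it (summed 80.1 to 89.1 CPM with, 66.8 to 81.1 CPM without). Of 6 tested fibroblast markers, 2 were lower with DEX, Col1a1 and Pdgfra (list summed 482 to 500.1 CPM with, 462 to 494 CPM without), and Pdgfra was also the 1 of 5 oligodendrocyte markers that was lower (list summed 62.8 to 79.9 CPM with, 69.2 to 84.4 CPM without). Between 100 µM and no DEX, 2 endothelial, 2 neuron, 1 astrocyte and 1 fibroblast markers were higher, and 3 oligodendrocyte, 2 fibroblast and 1 astrocyte markers were lower. Of these markers, Lum was at 0 without DEX and no other was at 0 in a group compared. Of all tested genes, 23.4% passed at 100 µM, 10.8% with DEX, 19.4% on the slope and 35.1% at 100 µM over no DEX. The part of the markers in these results was not tested.

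The genes whose log2 CPM followed each of the 10 most closely over the 16 L929 libraries were Egln3 for Lpin1 (Pearson r = 0.98), Clic1 for Plin2 (r = 0.98), Abca1 for Scd2 (r = 0.98), Fbxl20 for Lpl (r = 0.99), Chtf18 for Cpt1a (r = 0.97), Vwa1 for Angptl4 (r = 0.96), Fam78b for Acsl1 (r = 0.96), Cyb5b for Fasn (r = 0.92), Cygb for Scd1 (r = 0.91) and Tpp1 for Pnpla2 (r = 0.91). Over the 28 neuron libraries the closest were Celsr3 for Fasn (r = 0.94), Lonrf2 for Acsl1 (r = 0.88), Cand1 for Scd2 (r = 0.87), Hmgcs1 for Lpin1 (r = 0.87) and Mob1a for Scd1 (r = 0.83), and the other 5 genes reached at most 0.75. These are descriptions over libraries that share their groups and scaling, picked as the highest of all genes.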

How the data were processed

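Polyadenylated RNA was sequenced, per the labels, and the authors deposited raw read counts per gene, 1 table for the 16 L929 and 1 for the 28 neuron libraries. The submitters' processing notes name HISAT2 2.2.1 and mm10. The counting tool, annotation release and use of strand are not stated there or in the labels, so reads of overlapping genes may have been split or shared.

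Each table was analysed separately with edgeR 4.0.16 (R 4.3.3): genes were filtered with filterByExpr, libraries scaled by TMM, and group contrasts tested with the robust quasi-likelihood test over all groups of the table, with no replicate block. p-values were adjusted by the Benjamini-Hochberg method over all genes tested (14118 in L929, 17837 in neurons, 17349 for the slope on dose), and a gene was called below 0.05 with no minimum fold. In the text, a value such as -0.30 ± 0.04 is a log2 change (first group over second) with its standard error, and "passed" refers to this adjusted p. CPM are TMM-scaled and RPKM use the gene length in the deposited tables. Depth was 17211270 to 18313407 counts in L929 and 13685236 to 17083701 in neurons. The procedure was tested on simulated data. These had independent libraries and the same spread for every gene, so the likeness of libraries in pairs was not part of that test.

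The labels do not say that replicates came from separate cultures or animals, so p-values here cover only library-to-library spread, possibly technical. Between libraries of a group, the chi-square over genes per degree of freedom was 2.8 to 10.8 in L929 and 2.16 to 8.66 in neurons, so none was counted as a duplicate, although pairs of libraries resembled each other. The genes and pathway lists were chosen with earlier results of these data known. Pathway genes were named by a rule: at most the 3 largest changes per list and comparison among called genes averaging at least 2 CPM. The text gives examples of the genes so named, not all of them, and one result is not reported here. Like genes are the highest Pearson r of log2 CPM with a prior count of 2. Alternatives were DESeq2 1.42.0, RLE scaling, no filter on low counts, only the compared groups, a replicate block, pairs summed, each replicate left out and, chosen after seeing the data, either pair of libraries alone and the 3 µM group without libraries 2 and 4.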

Additional observations from a re-analysis of the deposited data

Results flagged for a closer look

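Of 110 sets of 4 libraries examined (10 genes in 11 groups), 5 held a library far from the other 3, and chance gives about 1 in 20 such sets. Angptl4 had 125.8 CPM in delta-CC-LCD replicate 1, where the other 3 had 76.3 to 81.6 CPM. Cpt1a had 150.8 CPM in full-length replicate 2, where the others had 135.4 to 137.1 CPM, and 161.6 CPM in delta-IDR replicate 4, where the others had 179.6 to 180.1 CPM. Lpl had 52.5 CPM in replicate 2 of neurons with 30 µM interfering peptide, where the others had 65.3 to 67.1 CPM. Pnpla2 had 8.96 CPM in replicate 3 of neurons with control peptide and DEX, where the others had 12.3 to 12.7 CPM. The causes were not tested.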

How the results depend on the processing

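Of the log2 changes recomputed under the alternatives, 2274 kept their side of the threshold, 74 lost the call, 50 gained one and 2 changed sign. The 2 are Fasn in delta-IDR over control, -0.014 in libraries 2 and 4 alone, and Cpt1a at 100 µM over control peptide, -0.025 in libraries 1 and 3 alone. Neither passed there, so these calls were lost too and not replaced by a call in the other direction. Among the 2274, 67 values that passed neither way changed sign. Leaving out 1 replicate at a time, the number of the 10 genes called was 7 to 8 in full-length, 7 to 8 in delta-IDR and, for delta-CC-LCD, 9 over control. Over all tested genes, 7922 to 8116, 8666 to 8894 and 8763 to 9023 were called in the same order. Between constructs the number of the 10 was 6 to 8 in delta-IDR over full-length, 4 to 6 in delta-CC-LCD over full-length and 7 to 8 in delta-IDR over delta-CC-LCD. Over all tested genes, 2893 to 3559, 2091 to 2829 and 2509 to 3217 were called in the same order. In neurons the number of the 10 was 2 with DEX over no DEX, 0 to 1 at 1 µM, 0 to 1 at 3 µM, 0 at 10 µM, 2 to 4 at 30 µM and 4 to 7 at 100 µM over control peptide, 5 to 6 at 100 µM over no DEX and 3 to 4 for the slope. Over all tested genes, DEX over no DEX called 1162 to 1796. From 1 to 100 µM, 228 to 428, 436 to 1052, 479 to 990, 1892 to 2649 and 3325 to 4041 were called over control peptide. At 100 µM over no DEX 5350 to 5840 were called, and for the slope 2841 to 3441.

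With pairs summed, which leaves fewer samples, 0 genes were called at 1 µM, 0 at 3 µM, 1 at 30 µM and 2 at 100 µM over control peptide. Libraries 2 and 4 alone called 4 with DEX, 0 at 1 µM, 3 at 3 µM and 0 for the slope, and libraries 1 and 3 alone called 0 at 3 µM. The fit of the compared groups only called 0 at 3 µM, and the slope on ranks that include the control peptide called 5. The cause of these differences was not tested.

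Counts over all genes that moved by more than 1.5 times were, for delta-CC-LCD over full-length, 1817 in libraries 1 and 3, 1736 in libraries 2 and 4 and 1500 with pairs summed, against 2726, and for delta-IDR over delta-CC-LCD 1895 in libraries 1 and 3 and 2085 with pairs summed, against 3147. With DEX there were 330 with pairs summed and 1162 without control peptide replicate 1, against 1925. At 1 µM there were 697 in libraries 1 and 3, 1766 in libraries 2 and 4, 89 with pairs summed and 228 to 271 without control peptide replicate 2 or interfering peptide replicate 2 or 4, against 409. At 3 µM there were 370 with the compared groups only, 2822 in libraries 2 and 4, 101 with pairs summed and 436 to 568 without control peptide replicate 2 or 4 or interfering peptide replicate 2, against 937. At 10 µM there were 1700 in libraries 2 and 4, 108 with pairs summed and 479 to 632 without control peptide replicate 2 or 4 or interfering peptide replicate 1, 3 or 4, against 960. At 30 µM there were 700 with pairs summed, against 2833, and at 100 µM 2765 in libraries 1 and 3 and 1788 with pairs summed, against 4166. For the slope there were 1422 in libraries 1 and 3, 1551 in libraries 2 and 4, 1515 with pairs summed and 1417 without the 100 µM libraries, against 3361.

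Replicate numbers did not pair libraries across groups: same-numbered libraries' deviations correlated at -0.104 to 0.0652 in L929 and -0.0924 to 0.088 in neurons, and none exceeded 0.1. With the replicate block, 6 genes were called at 100 µM over control peptide and 4 for the slope, Acsl1 being added in both (-0.27 and -0.14), and the other comparisons had the same numbers of calls as without the block. Depth limited Angptl4 in neurons, with 11 to 37 counts per library.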
